A study of Homo sapiens with 12 samples.

Results

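L428 is an established cell line of classical Hodgkin lymphoma, and its expression profile was set against those of KM-H2 and L1236, the other lines that the labels call Hodgkin cells. The comparison took the 6 Hodgkin arrays of the series' 12 (2 of L428, 2 of KM-H2 and 2 of L1236), chosen by the line named in each array's title, and no expression value entered that choice. The 6 arrays of Namalwa, SU-DHL4 and SU-DHL6, labelled as B-cell lymphoma cells, served as reference levels. All lines were untreated and were grown in RPMI medium with 10% fetal bovine serum. Each line stands for 1 tumour, so a difference between L428 and the other lines is a difference between lines and not between types of disease. RNA was hybridised to an Affymetrix human genome oligonucleotide array, and the deposited values are log2 signals normalised by robust multi-array average (RMA). Per the series' design text, the Hodgkin lines and Namalwa belong to a dataset published earlier by the same group, and SU-DHL4 and SU-DHL6 were newly profiled.

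Hodgkin and Reed-Sternberg cells descend from B cells but have lost most of the B-cell programme. They are known for constitutive NF-kB and JAK-STAT signalling, for secretion of chemokines that attract T cells and other leukocytes, and for surface molecules of the TNF and immune checkpoint families. NF-kB is held in check by IkB proteins and by deubiquitinases such as A20 (TNFAIP3), and STAT factors carry cytokine receptor signals to the nucleus until SOCS proteins and phosphatases end them.

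Duplicate arrays correlated across probe sets with r from 0.982 in SU-DHL6 to 0.9951 in L1236. In the L428 pair 20 probe sets were over 2-fold apart. The largest number of such probe sets among the Hodgkin lines was 122, in KM-H2. Median signals of the 12 arrays ran from 6.85 to 6.92. The label of L428 was checked against markers. Averaged over 15 Hodgkin cell markers, the log2 signal was 10.34 and 10.40 on the L428 arrays, 9.54 to 9.86 on the other Hodgkin arrays and 6.64 to 7.13 on the B-cell arrays. Averaged over 31 B-cell surface and receptor genes, it was 7.03 on both L428 arrays, 7.04 to 7.31 on the other Hodgkin arrays and 8.93 to 9.31 on the B-cell arrays. Averages over 30 T and NK cell markers were 6.69 and 6.73 in L428 and 6.65 to 6.80 on the B-cell arrays. Averages over 32 myeloid markers were 5.99 and 6.06 in L428 against 5.93 to 6.11, and over 16 erythroid and platelet markers 6.85 and 6.86 against 6.70 to 6.91. Averages over 28 stromal, endothelial and epithelial markers were 6.37 and 6.38 in L428, 6.31 to 6.46 on the other Hodgkin arrays and 6.09 to 6.33 on the B-cell arrays. The other Hodgkin arrays averaged 6.69 to 6.94 for T and NK cell markers and 6.08 to 6.315 for myeloid markers. For erythroid and platelet markers they averaged 6.86 to 6.92. The labels do not tell whether the pair of arrays of a line stands for independent cultures, and p-values therefore reflect the scatter within pairs, which may be no more than technical.

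The comparison asked which genes and programmes set L428 apart. One limma fit took all 12 arrays with a coefficient per line, and L428 was compared with the mean of the KM-H2 and L1236 means and with each line alone. A gene was called where the Benjamini-Hochberg adjusted p over 22215 probe sets was under 0.05 and the log2 difference was at least 1 in size. Each of 11939 genes was read from 1 probe set, that with the highest mean over the 12 arrays. Against the mean of both lines, 397 genes were higher in L428 (3.33%) and 361 were lower (3.02%). Against KM-H2 alone 541 genes were higher (4.53%) and 521 lower (4.36%), and against L1236 alone 450 were higher (3.77%) and 454 lower (3.8%). These comparisons share the L428 arrays. The median SE was 0.11 for the difference from the mean of both lines and 0.127 for the difference from 1 line.

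A difference from a mean of 2 lines can come from only 1 of them. Of the 397 genes that were higher, 207 were called against KM-H2 and against L1236, 106 against KM-H2 alone and 84 against L1236 alone. Of the 361 that were lower, 103 were called against both, 125 against KM-H2 alone and 133 against L1236 alone. L428 thus stood apart from both lines in 310 genes, 207 on the high side (1.73% of all genes) and 103 on the low side (0.863%). The same rule gave 284 genes higher and 218 lower for KM-H2, and 276 higher and 146 lower for L1236. In the text, "apart from both" means a call in the same direction against each line.

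**Figure D1:**
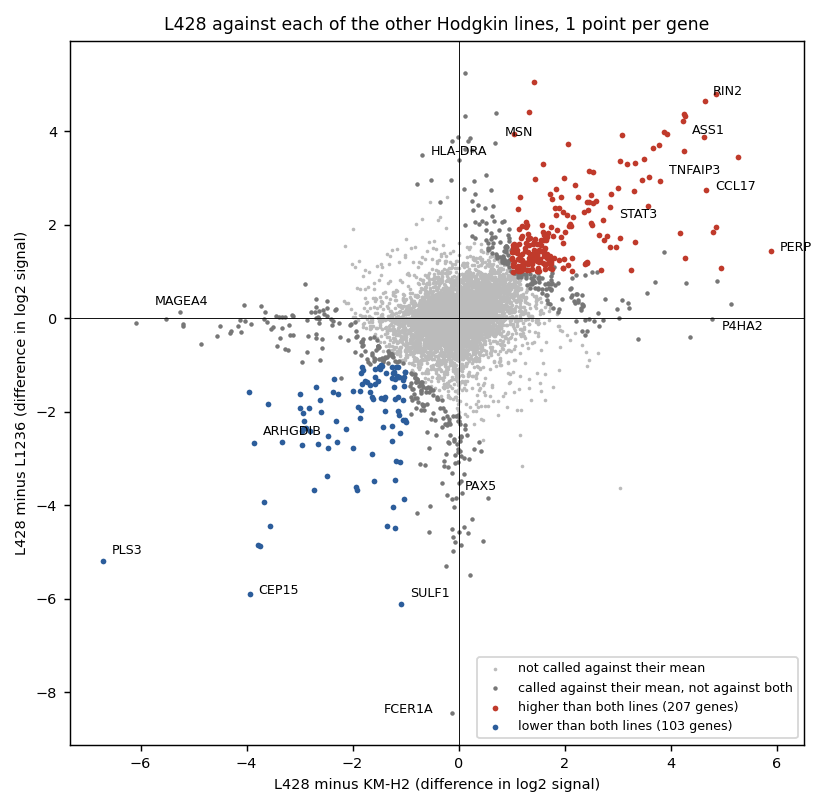
Each point is 1 of 11939 genes, placed by the log2 difference of L428 from KM-H2 (x axis) and from L1236 (y axis). Red points are the 207 genes higher and blue points the 103 genes lower than both lines, and dark grey points on the axes are genes called against the mean of both lines that L428 shares with 1 of them, such as MAGEA4 with L1236 and PAX5 with KM-H2.

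RIN2, ASS1 and TFPI2 were given as marker genes of L428, and their levels are a description. RIN2 encodes a Rab5-binding protein of endocytic traffic. Its log2 signal was 9.55 and 9.33 on the L428 arrays, 4.94 and 4.64 in KM-H2 and 4.86 and 4.71 in L1236. The means of the B-cell lines were 4.67 to 4.76, so L428 alone of the 6 lines had signal above the low level shared by the other 5. ASS1 is argininosuccinate synthase, an enzyme of the urea cycle that lets cells make arginine from citrulline. It measured 10.29 and 9.67 in L428, 5.68 and 5.74 in KM-H2 and 5.47 and 5.82 in L1236, and 5.83 to 6.13 in the B-cell lines. TFPI2 is a Kunitz-type inhibitor of serine proteases of the extracellular matrix. It measured 9.45 on both arrays in L428, 5.15 and 5.23 in KM-H2 and 5.15 and 4.99 in L1236. The L428 arrays lay far above all other arrays for all of these genes, and the differences from the mean of both Hodgkin lines were 4.65 ± 0.11 for RIN2, 4.30 ± 0.23 for ASS1 and 4.32 ± 0.12 for TFPI2 (SE, 2 arrays per line). The second TFPI2 probe set was also called, with a smaller difference of 2.27. TFPI, the related inhibitor of coagulation, read 4.63 and 4.77 in L428 and 5.08 and 4.77 in KM-H2, a difference of -0.17 from the mean of both lines that was not called.

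Promoter sequences are shown for ASS1 and TFPI2, which were high in L428 alone, and for PLS3 and ARHGDIB, which were low in L428 and high in both other Hodgkin lines. Each line gives 250 bases before and 50 after the gene's start, 5′ to 3′ on the gene's strand, from RefSeq on GRCh38.p14. Capitals mark CG dinucleotides, the sites of DNA methylation in mammals.

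TFPI2, chr7:93890704-93891003, minus strand: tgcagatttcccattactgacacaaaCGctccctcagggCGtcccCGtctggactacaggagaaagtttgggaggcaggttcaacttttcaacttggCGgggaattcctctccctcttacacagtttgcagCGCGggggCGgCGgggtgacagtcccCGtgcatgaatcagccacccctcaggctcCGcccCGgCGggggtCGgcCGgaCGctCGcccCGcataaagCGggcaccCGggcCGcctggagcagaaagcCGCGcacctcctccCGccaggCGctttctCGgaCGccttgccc
ASS1, chr9:130444457-130444756, plus strand: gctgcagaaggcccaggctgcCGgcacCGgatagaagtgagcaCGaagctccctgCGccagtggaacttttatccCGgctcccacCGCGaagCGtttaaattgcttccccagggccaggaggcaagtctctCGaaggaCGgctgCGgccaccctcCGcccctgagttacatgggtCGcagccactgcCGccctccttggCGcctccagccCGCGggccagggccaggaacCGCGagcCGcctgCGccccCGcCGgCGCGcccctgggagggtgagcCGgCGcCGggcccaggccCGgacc
PLS3, chrX:115560924-115561223, plus strand: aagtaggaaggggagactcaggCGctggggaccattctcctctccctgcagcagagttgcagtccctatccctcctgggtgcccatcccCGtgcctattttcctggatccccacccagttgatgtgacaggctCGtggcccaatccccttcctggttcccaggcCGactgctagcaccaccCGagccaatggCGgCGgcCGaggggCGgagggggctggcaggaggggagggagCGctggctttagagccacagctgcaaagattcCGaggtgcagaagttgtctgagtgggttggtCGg
ARHGDIB, chr12:14948847-14949146, minus strand: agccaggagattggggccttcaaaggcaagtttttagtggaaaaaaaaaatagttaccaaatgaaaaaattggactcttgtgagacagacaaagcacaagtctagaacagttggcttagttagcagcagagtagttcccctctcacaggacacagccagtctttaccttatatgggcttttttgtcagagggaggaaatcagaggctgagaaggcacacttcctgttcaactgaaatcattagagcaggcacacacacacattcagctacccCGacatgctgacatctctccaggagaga

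The TFPI2 and ASS1 windows hold 26 and 29 CG dinucleotides, the PLS3 window 12 and the ARHGDIB window 1. Among genes apart from both lines, 77.8% of the 167 higher and 70.9% of the 86 lower genes with a promoter in the RefSeq table held at least 15. The share was 71.7% over the 9545 measured genes with a promoter in the table, close to both, and 48.9% over all 27195 promoters of the table. A TATAAA motif on the gene's strand within the 50 bases before the start was absent from all 4 windows and was found in 3.64% of the promoters of measured genes and 2.92% of all promoters. DNA methylation was not measured in these files.

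The highest genes of L428 came from many functions. The 15 genes with the largest differences among those higher than both lines were TRDV3, RIN2, HEBP2, TFPI2, ASS1, CFI, MYBPC2, GNG11, S100A6, GLDC, SLC25A21, CCL17, PERP, MAP3K7CL and LRRN3, with differences from 3.50 to 4.83. TRDV3 encodes a variable segment of the T-cell receptor delta chain and measured 9.44 and 9.43 in L428, 4.49 and 4.65 in KM-H2 and 4.68 and 4.61 in L1236 (adjusted p = 8.6e-10). The T-cell genes CD3D (6.51 and 6.49) and CD3E (7.70 and 7.43) were in L428 at the levels of the B-cell lines (6.48 to 6.57 and 7.61 to 7.67). The TRDV3 probe set may also read neighbouring segments of the locus, so its gene is uncertain. HEBP2, a haem-binding protein, measured 11.39 and 11.18 in L428 against 5.98 and 6.04 in KM-H2 and 7.96 and 7.72 in L1236. The B-cell lines lay between, at 8.21 to 9.19. CFI is complement factor I, the serine protease that cleaves C3b and C4b. It measured 10.45 and 10.51 in L428, 5.88 and 5.82 in KM-H2 and 6.66 and 6.54 in L1236, a difference of 4.26 ± 0.10. MYBPC2, a myosin-binding protein of fast skeletal muscle, measured 9.73 and 9.85 in L428 and 5.51 to 5.61 on the 4 other Hodgkin arrays. GNG11, a G-protein gamma subunit, measured 8.80 and 8.25 and 4.55 to 4.63 in the same order, and the calcium-binding protein S100A6 9.91 and 10.08 and 5.95 to 6.12. For MYBPC2, GNG11 and S100A6 the other Hodgkin lines and the B-cell lines shared a low level, and L428 stood above it.

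PERP and LRRN3 had other patterns. PERP, a membrane protein of desmosomes and a p53 target, was high in L428 (10.46 and 10.16) and L1236 (9.17 and 8.57) and low in KM-H2 (4.44 and 4.40), and its difference from L1236 was 1.44 (adjusted p = 0.00032) against 5.89 from KM-H2. LRRN3, a leucine-rich repeat membrane protein, measured 10.13 and 10.67 in L428, 7.42 and 7.21 in KM-H2 and 6.44 and 6.53 in L1236, with SU-DHL6 at 8.75 the next highest line. MAP3K7CL read 8.89 and 8.45 in L428 and 4.94 to 5.08 on the other Hodgkin arrays, while SU-DHL4 reached 7.62. SLC25A21, a mitochondrial carrier of oxodicarboxylates, had the widest spread between the L428 duplicates of these genes (7.35 and 8.18), and all 4 other Hodgkin arrays lay at 3.96 to 4.08.

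The lowest genes of L428 were led by PLS3, CEP15, CLIC2, CYP1B1, MLLT11, MARCKSL1, SULF1, ARHGDIB, CXCL10, YBX3, DEPP1, SORL1, MYOF, DNAJC6 and ZFHX3. PLS3 is plastin 3, an actin-bundling protein. It measured 4.24 and 4.14 in L428, 10.88 and 10.92 in KM-H2 and 9.45 and 9.31 in L1236, a difference of -5.95 ± 0.08 and the largest of either sign among genes apart from both lines (adjusted p = 2.55e-10). The B-cell lines were at 4.15 to 4.24, the level of L428. CEP15, a centrosomal protein, measured 4.70 and 4.65 in L428 against 8.60 and 8.64 in KM-H2 and 10.58 and 10.56 in L1236. CLIC2, an intracellular chloride channel protein, measured 4.60 and 4.66, 8.50 and 8.33 and 9.48 and 9.49 in the same order, and was at 4.52 to 4.53 in the B-cell lines. CYP1B1, a cytochrome P450 of the aryl hydrocarbon response, was called lower by all 4 of its probe sets. Its representative read 6.48 and 6.57 in L428, 9.97 and 10.58 in KM-H2 and 11.64 and 11.13 in L1236. For PLS3, CLIC2 and CYP1B1 both KM-H2 and L1236 lay far above L428 and the B-cell lines, while for CEP15 the B-cell lines spanned 5.12 to 7.83.

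SULF1, SORL1 and MYOF were lower mainly against L1236. SULF1, an extracellular sulfatase that trims heparan sulfate, differed by -1.08 from KM-H2 and by -6.11 from L1236. MYOF, a ferlin of membrane repair, differed by -1.20 and -4.49. SORL1, a sorting receptor of the endosome, differed by -1.35 and -4.43. ZFHX3, a homeobox and zinc-finger factor, measured 6.59 and 6.43 in L428, 8.03 and 8.84 in KM-H2 and 10.43 and 9.92 in L1236. All of these genes were called against each line, as their choice required, and the sizes differed between the lines.

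**Figure D2:**
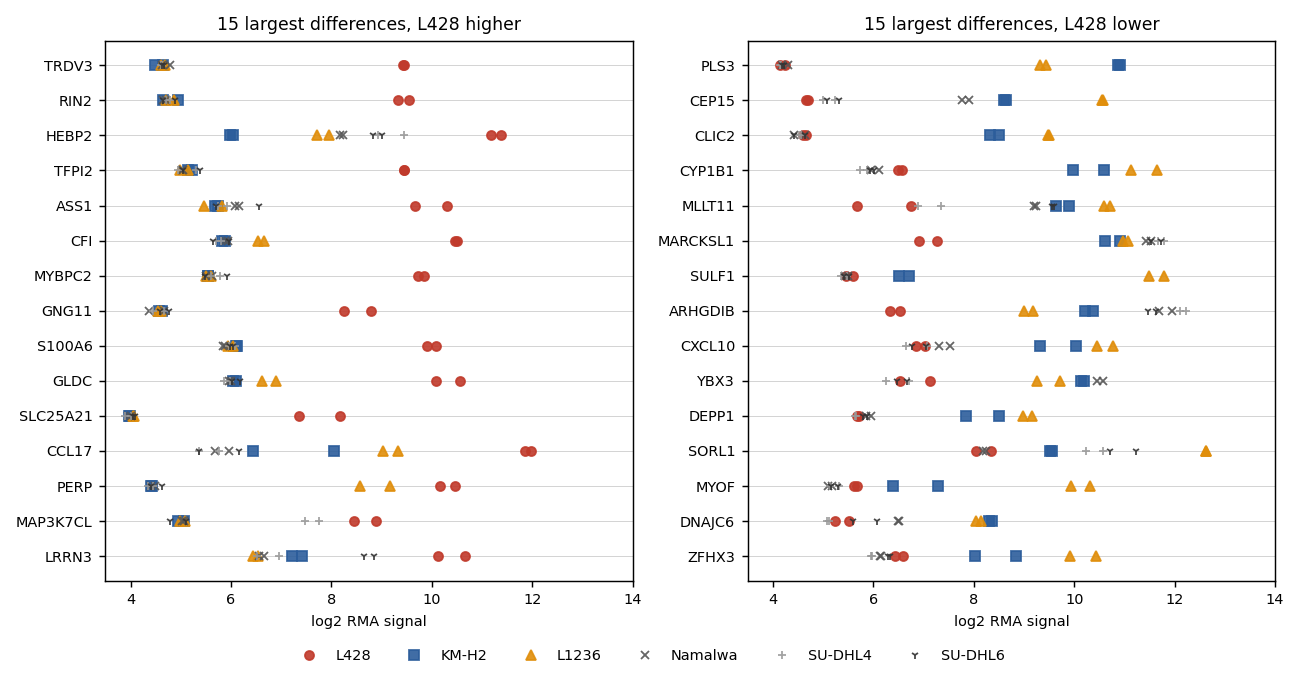
Log2 signal of each of the 12 arrays for the genes with the largest differences among those higher or lower than both other Hodgkin lines, with 1 point per array and a colour or marker per line. The L428 points lie apart from the KM-H2 and L1236 points in every gene shown, which follows from the choice of genes called against both lines. The difference from KM-H2 reaches -6.71 in PLS3.

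Counted over all 6 lines, L428 exceeded each of the other 5 line means by at least 2 log2 units in 29 genes and lay below each by at least 2 in 7. The corresponding numbers were 46 and 8 for KM-H2 and 56 and 15 for L1236. Besides the leading genes the 29 included TNFSF10, AMPH, TNFAIP3, DUSP6, PON2, CCL1, TSPAN8, STAT3, BCKDHB, MET and TRAF1, which are named from that count and in part were chosen after their values were seen. AMPH, amphiphysin of synaptic endocytosis, measured 9.82 and 9.59 in L428 and 6.36 to 6.54 on the other Hodgkin arrays. PON2, a lactonase of mitochondria and the endoplasmic reticulum, measured 8.60 and 8.62 and 5.41 to 6.28. TSPAN8, a tetraspanin of epithelia, measured 7.27 and 7.23 and 4.64 to 4.93. As these genes were taken from that count, their place above every other line follows from its rule. The 7 low genes were CYB5A, FMR1, PFKM, QDPR, MFNG, MARCKSL1 and ARHGDIB. FMR1, the RNA-binding protein lost in fragile X syndrome, measured 5.77 and 5.57 in L428, 7.83 to 8.41 on the other Hodgkin arrays and 7.90 to 8.65 in the B-cell lines. QDPR, which regenerates tetrahydrobiopterin, measured 7.07 and 7.40, 9.61 to 10.23 and 9.59 to 10.57 in the same order, and CYB5A, cytochrome b5, 7.14 and 6.85, 9.29 to 9.97 and 9.31 to 9.55. L428 was the lowest of the 6 lines for each of them, as the rule of the count required.

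Programmes were described over 47 gene lists and 94 gene families by how many measured members were called, beside the shares over all genes (3.33% higher and 3.02% lower than the mean of both lines). The median difference over all genes was -0.01. The plot of programmes shows the shares for every list.

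**Figure D3:**
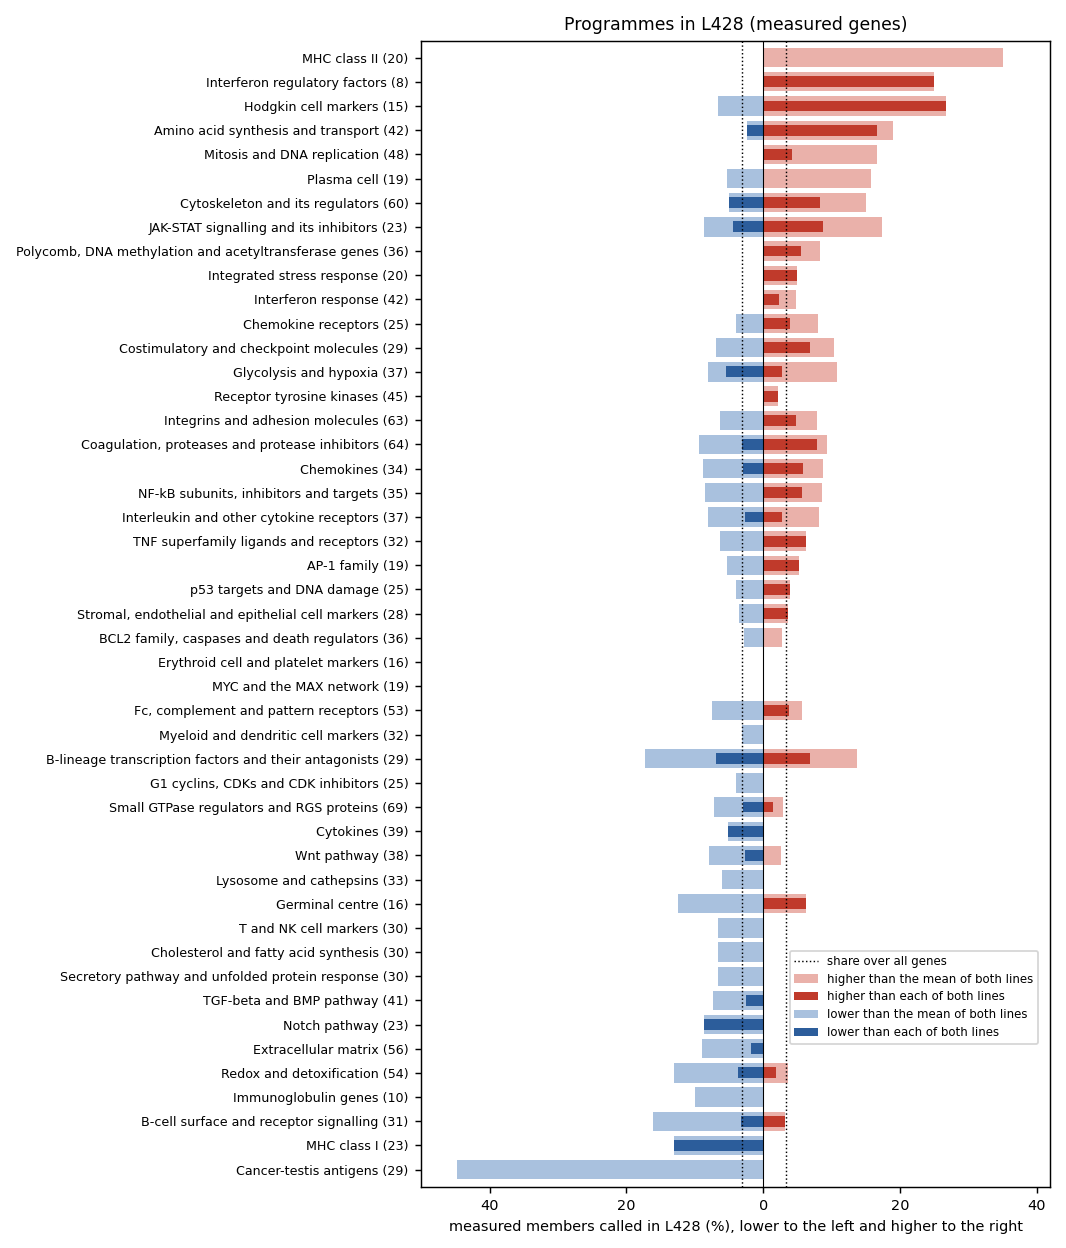
Share of measured members (%, x axis) of each gene list called higher (red, to the right) or lower (blue, to the left) in L428, with the number of measured genes in brackets. Pale bars are calls against the mean of KM-H2 and L1236, dark bars calls against each of them, and dotted lines the shares over all genes. MHC class II genes (7 of 20) and amino acid genes (8 of 42, the given marker ASS1 included) reach far to the right, and cancer-testis antigens (13 of 29) far to the left.

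Amino acid synthesis and transport was higher in L428 in 8 of 42 measured genes and lower in 1, and 7 of the 8 were apart from both lines. The given marker ASS1 is counted in the 8 and in the 7. PHGDH catalyses the first step of serine synthesis. It measured 9.56 and 9.45 in L428, 6.79 and 6.47 in KM-H2 and 6.99 and 6.69 in L1236, a difference of 2.77 ± 0.18 (adjusted p = 4.19e-06). The means of Namalwa and SU-DHL6 were 9.81 and 9.93, so the L428 level was among those of the B-cell lines. SLC7A5 and SLC3A2 form the LAT1 transporter of large neutral amino acids. SLC7A5 measured 11.67 and 11.82 in L428, 9.21 and 9.37 in KM-H2 and 9.47 and 9.38 in L1236, and SLC3A2 measured 10.22 and 10.51, 9.11 and 9.08 and 8.53 and 8.29. Both subunits were higher than on every other Hodgkin array. ASNS, asparagine synthetase, differed by 1.52 ± 0.15, SLC1A4, a neutral amino acid transporter, by 2.41 ± 0.32, and SLC7A11, the cystine transporter, by 1.45 ± 0.13. The KM-H2 duplicates of SLC1A4 lay apart (8.77 and 7.29), and all 4 of its probe sets were called. SLC38A1, a glutamine transporter, was shared with KM-H2 (0.18 from KM-H2 and 3.81 from L1236). SMS, spermine synthase, was the member that was lower, with 8.05 and 7.94 in L428, 9.81 and 9.51 in KM-H2 and 9.32 and 9.51 in L1236.

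Other members were not called. ASL, which follows ASS1 in arginine synthesis, differed by 0.74 (adjusted p = 0.00142), below the size limit, and SLC7A1, an arginine transporter, by 0.01 (adjusted p = 0.984). GLDC, the glycine decarboxylase of the mitochondrial glycine cleavage system, was outside this list and was called higher than in both lines. It measured 10.08 and 10.57 in L428 and 6.05 to 6.89 on the other Hodgkin arrays. In the list of the integrated stress response, 1 of 20 genes was called, SARS1, the seryl-tRNA synthetase (1.46 ± 0.18, apart from both lines). Its transcription factor ATF4 differed by 0.89 (adjusted p = 0.000137), under the size limit, and DDIT3 by 0.02 (adjusted p = 0.955).

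NF-kB genes were split in L428. Of 35 measured subunits, inhibitors and targets, 3 were higher and 3 lower. TNFAIP3 encodes A20, an enzyme that ends NF-kB signals. It measured 12.12 and 11.95 in L428, 8.38 and 8.10 in KM-H2 and 9.04 and 9.17 in L1236, and 6.72 to 8.44 in the B-cell lines, a difference of 3.36 ± 0.15 (adjusted p = 3.81e-07). TRAF1, an adaptor of TNF receptors and a target of NF-kB, measured 9.87 and 9.84 in L428, 7.63 and 7.98 in KM-H2 and 6.19 and 6.04 in L1236, a difference of 2.90 ± 0.13. Both genes were apart from both lines. CYLD, a further deubiquitinase, was higher in L428 (9.11 and 9.06) and L1236 (8.66 and 8.84) than in KM-H2 (5.92 and 5.85), and only 1 of its 7 probe sets was called. CD44 (-1.92), BIRC2 (-1.05) and TRAF3 (-1.15) were lower. BIRC2 and TRAF3 belong to the complex that restrains the alternative NF-kB pathway. TRAF3 was called against KM-H2 and CD44 and BIRC2 against L1236.

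The NF-kB subunits were not called. RELA differed by 0.06, REL by -0.03, NFKB2 by 0.03 and RELB by -0.39, and NFKB1 by -0.69 (adjusted p = 0.00121), which passed the p threshold but not the size limit. The inhibitor NFKBIA differed by -0.69 (adjusted p = 0.00503), also under the size limit, with 10.79 and 10.70 in L428, 11.04 and 11.27 in KM-H2 and 11.86 and 11.59 in L1236. ICAM1, an adhesion target of the pathway, differed by -0.48. BCL2A1, an antiapoptotic target, was intermediate in L428 (7.26 and 7.13), below KM-H2 (9.55 and 8.82) and above L1236 (5.36 and 5.19).

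JAK-STAT signalling was higher in 4 of 23 genes and lower in 2. STAT3 measured 11.28 and 11.30 in L428, 8.39 and 8.49 in KM-H2, 8.96 and 8.87 in L1236 and 8.05 to 8.49 in the B-cell lines. Its difference from the mean of both lines was 2.61 ± 0.10 (adjusted p = 1.58e-07), and both of its probe sets were called. STAT4, which carries interleukin-12 signals, measured 8.52 and 8.72 in L428, 6.67 and 7.07 in KM-H2 and 6.73 and 6.58 in L1236. STAT5A had L428 duplicates far apart (9.72 and 11), and its difference of 1.03 ± 0.28 passed against the mean (adjusted p = 0.0237) and against KM-H2 but not against L1236. Without the second L428 array the STAT5A difference was 0.39 and was not called. STAT6 was not called (0.25, adjusted p = 0.0617). Of 5 measured STAT factors 3 were higher, against 3.33% of all genes, and 2 of them, STAT3 and STAT4, were apart from both lines. The median difference of the family, 1.03, was that of STAT5A. PTPN1, a phosphatase of JAK kinases, was higher by 1.18 and was called against KM-H2 alone.

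Receptors, kinases and feedback genes of the same pathway differed in both directions. CSF2RB, the common beta chain of the receptors for interleukin-3, interleukin-5 and GM-CSF, measured 6.39 and 5.88 in L428, 9.23 and 8.78 in KM-H2 and 8.46 and 8.50 in L1236, a difference of -2.61 ± 0.21. Its partner chains IL3RA (1.08) and IL5RA (1.22) were higher, and L428 shared the IL5RA level with L1236 (9.03 and 9.21 and 9.12 and 9.16, against 6.69 and 6.63 in KM-H2). PIM2, a kinase induced by STAT5, was lower than in both lines (-1.46 ± 0.14). SOCS2, a feedback inhibitor, was at 5.75 and 5.78 in L428 and 6.08 and 5.97 in L1236 and at 10.21 and 9.89 in KM-H2. The inhibitors SOCS1 (0.26) and SOCS3 (-0.08) were not called, nor were JAK1 (-0.72) and JAK2 (-0.52). JAK2 in L428 (6.56 and 6.66) lay below L1236 (8.19 and 7.83), with -1.40 for that difference (adjusted p = 8.24e-05). For interferon gamma, receptor chain 1 was higher (IFNGR1, 1.52 ± 0.14) and chain 2 lower (IFNGR2, -1.06 ± 0.11).

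**Figure D4:**
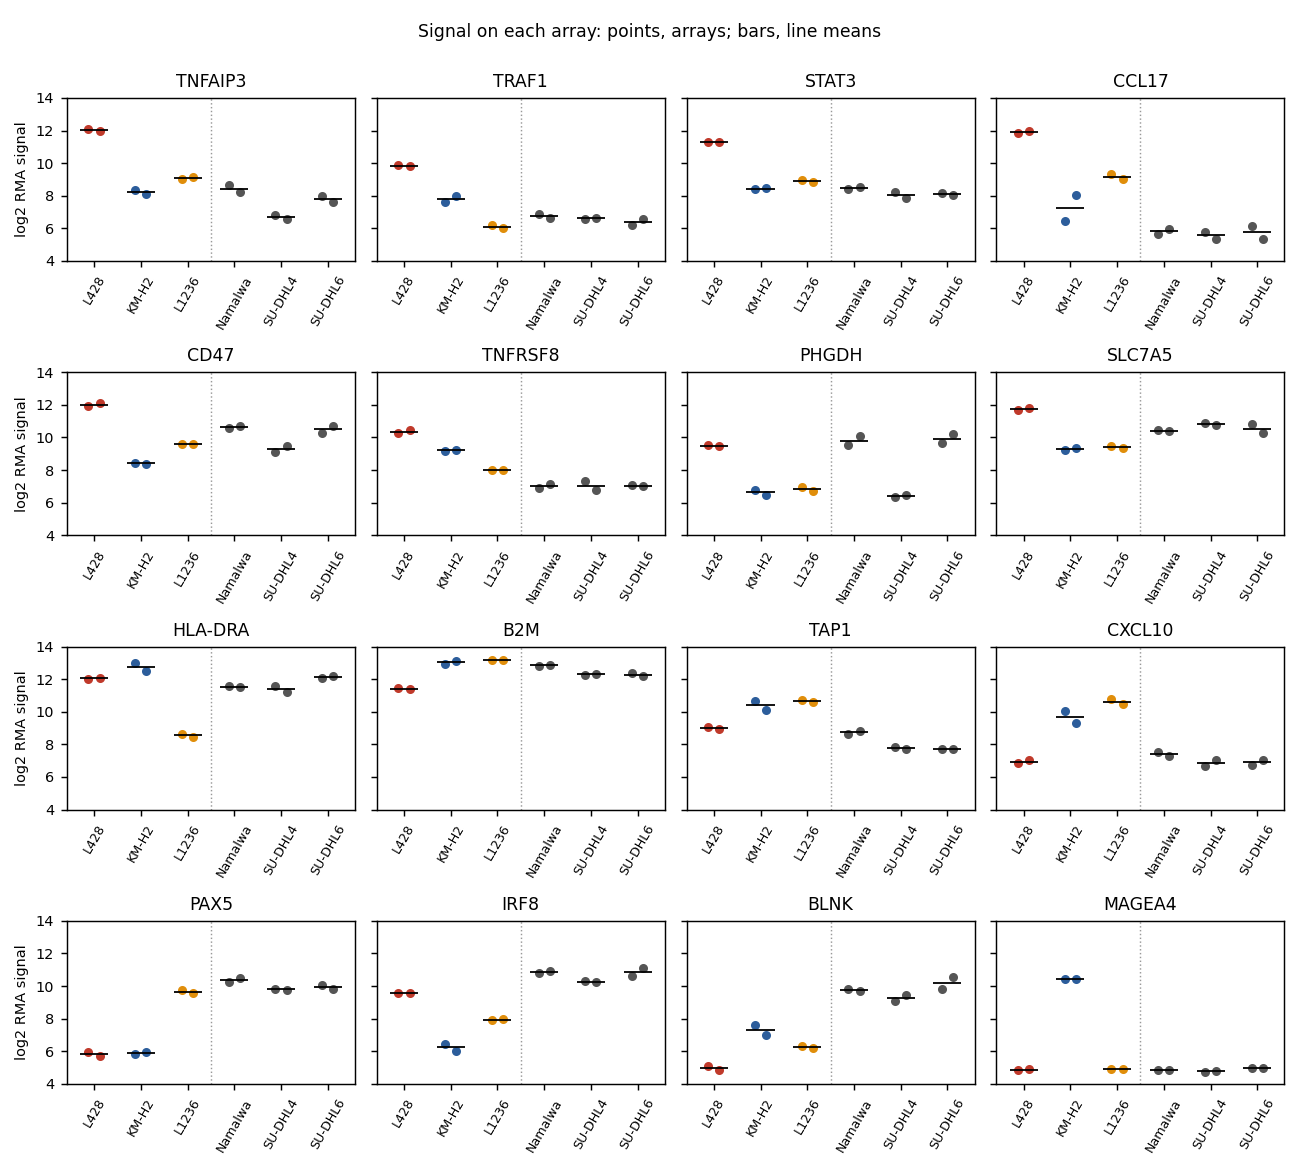
Log2 signal of each array for members of the described programmes, with 1 point per array and a colour or marker per line. TNFAIP3, STAT3 and SLC7A5 show the L428 points above those of both other Hodgkin lines, and HLA-DRA and PAX5 show L428 next to KM-H2.

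Chemokines were divided as well, with 3 of 34 higher and 3 lower. CCL17, also called TARC, attracts T cells through CCR4 and is a marker of Hodgkin cells. It measured 11.86 and 11.98 in L428, 6.45 and 8.06 in KM-H2 and 9.33 and 9.02 in L1236, and 5.56 to 5.81 in the B-cell lines. The KM-H2 duplicates lay far apart, and the difference of 3.70 ± 0.38 was called against both lines (adjusted p = 4.43e-05 and 0.00148). CCL1, a ligand of CCR8, measured 8.55 on both arrays in L428 and 5.94 to 6.05 on the other Hodgkin arrays. CX3CL1, fractalkine, was shared with KM-H2 (9.06 and 9.07 and 8.61 and 8.91, against 6.86 and 7.14 in L1236). CXCL10, an interferon-induced ligand of CXCR3, was at 6.84 and 7.03 in L428, 10.03 and 9.32 in KM-H2 and 10.77 and 10.45 in L1236, and L428 was at the level of the B-cell lines. CCL2 was high in L1236 alone (11.20 and 11.07) and CXCL12 in KM-H2 alone (10.02 and 9.19). CCL5 (0.31) and CCL22 (-0.24) were not called, and CCL5 was well above the B-cell lines in all 3 Hodgkin lines.

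In the list of chemokine receptors, which also holds the oxysterol receptor GPR183, 2 of 25 genes were higher and 1 lower. GPR183, which positions B cells, measured 7.09 and 7.29 in L428, 4.37 and 4.72 in KM-H2 and 5.23 and 5.58 in L1236. CCR4, the receptor for CCL17, differed by 1.04 ± 0.13 with 7.79 and 7.94 in L428. CCR7 was high in L428 (11.46 and 11.36) and L1236 (11.84 and 11.93) and lower in KM-H2 (9.25 and 9.36), and it was not called against the mean (0.82). ACKR3 was lower (-1.56), with KM-H2 duplicates of 8.24 and 6.28. Cytokines were called in 2 of 39 genes (5.13%, against 6.35% over all genes), and both were lower than in both lines. LTA, lymphotoxin alpha, measured 8.72 and 8.83 in L428, 9.97 and 9.93 in KM-H2 and 11.90 and 11.75 in L1236, and PDGFA measured 5.50 and 5.53, 6.96 and 6.97 and 6.53 and 6.54. IL13, an autocrine growth factor of Hodgkin cells, differed by 0.73 (adjusted p = 0.000893), under the size limit, and IL6 by -0.87.

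In the TNF superfamily 2 of 32 genes were higher and 2 lower. TNFRSF8 encodes CD30, the defining surface antigen of Hodgkin cells. It measured 10.24 and 10.46 in L428, 9.20 and 9.25 in KM-H2 and 8.03 and 7.98 in L1236, and 7.02 to 7.05 in the B-cell lines. The 3 lines kept a fixed order without overlap, with L428 highest (1.74 ± 0.14). TNFSF10, the death ligand TRAIL, measured 9.19 and 8.79 in L428, 5.21 and 5.77 in KM-H2 and 5.69 and 5.49 in L1236, and its 3 probe sets were all called. TNFRSF9 was lower (-1.01) and called against KM-H2 alone, and CD27 was lower (-1.12) through L1236 alone. CD40 (-0.99) was just under the size limit, and FAS (0.25) and CD70 (0.41) were not called.

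Of 29 costimulatory and checkpoint molecules 3 were higher and 2 lower. CD47, the signal that keeps macrophages from engulfing a cell, measured 11.91 and 12.10 in L428, 8.45 and 8.40 in KM-H2, 9.60 on both arrays in L1236 and 9.28 to 10.63 in the B-cell lines. Its difference was 2.99 ± 0.14, and 2 of its 4 probe sets were called, both higher. LGALS3, galectin-3, measured 10.19 and 9.85 in L428 and 6.62 to 6.75 on the other Hodgkin arrays, while LGALS1, galectin-1, was high in all 3 lines and was not called (0.33). CD58, the ligand of CD2, was shared with L1236 (10.32 and 10.42 and 10.34 and 10.17, against 7.62 and 7.86 in KM-H2). SLAMF1 and LGALS9 were high in L1236 alone of the Hodgkin lines (11.28 and 10.93 and 10.44 and 10.10). CD86 was 9.84 and 9.63 in L428, between KM-H2 (7.30 and 7.33) and L1236 (10.91 and 10.58).

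B-lineage genes differed in which of the other lines was close to L428. Of 29 transcription factors and their antagonists 4 were higher (BACH2, MSC, SPIB and MEF2C) and 5 lower (PAX5, POU2AF1, LEF1, BCL11A and ID2). PAX5, the factor that keeps B-cell identity, was 5.94 and 5.71 in L428 and 5.82 and 5.94 in KM-H2, against 9.76 and 9.56 in L1236 and 9.81 to 10.38 in the B-cell lines. POU2AF1, the B-cell coactivator of octamer-binding factors, had the same arrangement, with 5.06 and 5.35 in L428, 4.98 and 4.99 in KM-H2 and 10.63 and 10.76 in L1236. For both genes L428 and KM-H2 lay close together and L1236 was near the B-cell lines. BLNK, an adaptor of the B-cell receptor, was 5.10 and 4.83 in L428, below KM-H2 (7.63 and 7.01), L1236 (6.33 and 6.21) and the B-cell lines (9.27 to 10.19). LEF1 (-2.30 ± 0.18) and BCL11A (-1.26 ± 0.17) were also lower than in both lines and at least 1 log2 unit below every B-cell line.

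Other B-lineage genes, among them members of other lists, were higher in L428. MYBL1, a factor of germinal-centre B cells, measured 8.31 and 8.17 in L428, 4.88 and 4.99 in KM-H2 and 5.61 and 5.41 in L1236, and 8.12 to 9.28 in the B-cell lines. IRF8, a factor of germinal-centre B cells and myeloid cells, measured 9.56 and 9.59, 6.45 and 6.03 and 7.91 and 7.96 in the same order of Hodgkin lines, and 10.28 to 10.87 in the B-cell lines. IRF5 measured 10.44 and 10.45, 8.06 and 8.02 and 9.33 and 9.17, and 7.71 to 7.77 in the B-cell lines. L428 was highest of the Hodgkin lines for all of them, within 1 log2 unit of the B-cell range in MYBL1 and IRF8 and above it in IRF5. Of 8 interferon regulatory factors these 2 were called, while IRF4 (-0.29) and IRF1 (0.17) were not. PRKCB, the kinase that links the B-cell receptor to NF-kB, was higher than in both lines (2.05 ± 0.20), as was BACH2 (1.57 ± 0.29), whose L428 signal of 6.44 and 6.33 was still below all B-cell lines (7.62 to 10.49). MSC, a repressor of B-cell genes in Hodgkin cells, was also higher (1.72 ± 0.22), and ID2, a further antagonist, was lower (-1.05 ± 0.31, adjusted p = 0.0351 by limma). The ID2 call was lost when any 1 of the 6 Hodgkin arrays was left out, and with the replicate number as a block (adjusted p = 0.0505 by limma). CD79A, CD79B and MS4A1 were low in all 3 Hodgkin lines and were not called.

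In the list of plasma cell genes 3 of 19 were higher and 1 lower, and 0 were apart from both lines. CAV1 was shared with KM-H2 (10.14 and 10.29 and 9.89 and 10.32, against 6.67 and 6.53 in L1236) and ITGA4 with L1236 (8.54 and 8.51 and 8.65 and 8.47, against 6.42 and 5.86 in KM-H2). FKBP11, a chaperone of secretory cells, differed by 1.33 ± 0.19. PRDM1 (0.31), XBP1 (0.51) and SDC1 (0.21), which define plasma cells, were not called. In the Notch pathway 2 of 23 genes were called (8.7%, against 6.35% over all genes), and both were lower than in both lines. MFNG, a glycosyltransferase of Notch receptors, measured 6.06 and 6.34 in L428, 9.02 and 9.26 in KM-H2, 8.32 and 8.14 in L1236 and 9.88 to 10.47 in the B-cell lines, and the ligand JAG2 measured 7.24 on both arrays, 8.42 and 8.89 and 8.98 and 8.95 in the Hodgkin lines. NOTCH1 was not called (0.22).

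Antigen presentation differed between the classes. MHC class II, which presents peptides to CD4 T cells, was higher in 7 of 20 genes, 0 of them against both lines. Against L1236 10 of the 20 were higher, and against KM-H2 1 was lower and 0 higher by this limma fit. The median difference of the list was 0.57. HLA-DRA measured 12.02 and 12.07 in L428, 13.01 and 12.47 in KM-H2 and 8.66 and 8.45 in L1236, and 11.37 to 12.14 in the B-cell lines. HLA-DQA1 measured 11.63 and 11.65, 11.86 and 11.20 and 6.40 and 6.38 in the Hodgkin lines, though its second probe set was called lower. The invariant chain CD74 measured 12.76 and 12.78, 12.50 and 12.26 and 10.84 and 10.67. L428 and KM-H2 thus lay near each other and L1236 below them. CIITA, the master regulator of the class, differed by 0.07 and was not called. HLA genes have near-identical copies, so their probe sets may share signal.

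MHC class I and its processing showed 0 of 23 genes higher and 3 lower, all apart from both lines. B2M, the light chain of class I, measured 11.45 and 11.39 in L428, 12.95 and 13.12 in KM-H2 and 13.15 on both arrays in L1236 (-1.67 ± 0.09), and its second probe set differed by -0.98, just under the size limit. TAP1, the peptide transporter, measured 9.04 and 8.97 in L428, 10.68 and 10.12 in KM-H2 and 10.75 and 10.62 in L1236, against 7.71 to 8.74 in the B-cell lines. ERAP2, a peptide-trimming protease, measured 5.31 and 5.36, 7.51 and 7.41 and 7.71 and 7.67, and its call was lost when low values were raised to the lower quartile (adjusted p = 0.0566 by limma). HLA-B was not called (0.64), with 13.09 and 13.19 in L428, 13.49 and 13.37 in KM-H2 and 11.60 and 11.56 in L1236. Of 42 interferon response genes 2 were higher and 0 lower, ISG20 (1.36 ± 0.19) and MX2, while MX1 (-0.10) and IFIT1 (-0.01) were not called.

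Cancer-testis antigens are germline genes re-expressed in tumours. Of 29 measured genes 13 were lower in L428, and 0 of them against both lines by the limma fit. All but PRAME were called against KM-H2 alone, and PRAME against L1236 alone. The median difference of the list was -0.43. MAGEA4 measured 4.83 and 4.93 in L428 and 4.89 and 4.91 in L1236, the level of the B-cell lines, against 10.40 and 10.41 in KM-H2. MAGEA1, SSX1 and CTAG2 had the same arrangement, with KM-H2 at 10.01 and 9.72, 11.49 and 11.64 and 9.87 and 10.20. MAGEB2 and PRAME were expressed in all 3 Hodgkin lines. MAGEB2 measured 8.77 and 8.94 in L428, 10.62 and 10.73 in KM-H2 and 9.39 and 9.48 in L1236, and PRAME 8.94 and 8.61, 9.36 and 9.80 and 10.69 and 10.72, both above the B-cell lines. MAGEA genes share long stretches of sequence, so single members are uncertain.

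The cytoskeleton list held 9 genes higher and 3 lower of 60. FSCN1, the actin-bundling protein fascin used as a Hodgkin marker, measured 11.82 and 11.92 in L428, 9.90 and 10.21 in KM-H2, 9.80 and 9.23 in L1236 and 6.09 to 6.26 in the B-cell lines. LIMA1, which stabilises actin filaments, measured 11.85 and 11.97, 8.60 and 8.70 and 10.88 and 10.86 in the Hodgkin lines. MYH9, non-muscle myosin (1.26 ± 0.11), TPM4, a tropomyosin (1.08 ± 0.20), and KRT7, a keratin (1.40 ± 0.11), were also higher than in both lines. Of 34 keratins KRT7 alone was called. MSN, which links actin to the membrane, and LSP1 were shared with KM-H2, and L1236 was the low line (7.14 and 7.21 and 7.53 and 7.38, against 11.01 and 10.85 and 11.35 and 11.15 in L428). MARCKSL1, a membrane protein that binds actin, was 6.91 and 7.26 in L428, 10.61 to 11.08 on the other Hodgkin arrays and 11.47 to 11.72 in the B-cell lines. It was lower in L428 than in every other line, unlike PLS3, which was also low in the B-cell lines.

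Regulators of small GTPases were called higher in 2 of 69 genes and lower in 5. ARHGDIB, a regulator that is abundant in blood cells, measured 6.33 and 6.53 in L428, 10.37 and 10.20 in KM-H2, 9.0 and 9.17 in L1236 and 11.55 to 12.16 in the B-cell lines. RAB33A measured 5.57 on both arrays in L428 and 7.43 to 9.18 on the other Hodgkin arrays. ARHGEF3 was shared with L1236 (9.95 and 9.58 and 9.50 and 9.24, against 6.60 and 6.76 in KM-H2), and the other higher gene was the given marker RIN2, described above. Of 63 integrins and adhesion molecules 5 were higher and 4 lower. ICAM3, a ligand of LFA-1, measured 8.35 and 7.95 in L428, 5.32 to 5.68 on the other Hodgkin arrays and 9.06 to 9.52 in the B-cell lines. ITGAV, the alpha V integrin (1.23 ± 0.12), and JUP, plakoglobin (1.27 ± 0.16), were higher than in both lines. ITGB2 was lower through KM-H2 (8.97 and 9.54) and PECAM1 through L1236 (9.87 and 9.86), and L428 measured 6.17 and 5.95 and 6.93 and 6.94.

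Proteases, their inhibitors and coagulation genes were higher in 6 of 64 and lower in 6. The given marker TFPI2 is counted among the higher genes. SERPINB9, which inhibits granzyme B of killer cells, measured 9.57 and 9.22 in L428, 6.29 and 6.42 in KM-H2, 6.17 and 5.87 in L1236 and 8.61 to 10.19 in the B-cell lines, with 1 of 2 probe sets called. SERPINB1 was also higher than in both lines (1.44 ± 0.29), and SPINT2, a Kunitz-type inhibitor, was shared in part with L1236 (11 and 10.99 and 10.37 and 10.06, against 7.14 and 7.44 in KM-H2). TIMP1, an inhibitor of metalloproteinases, measured 7.23 and 7.18 in L428, 10.11 and 9.97 in KM-H2 and 8.93 and 9.31 in L1236, and CSTA, cystatin A, measured 4.78 and 4.83, 9.16 and 8.37 and 6.28 and 6.48. Both were lower than in both lines. MMP12 (11.31 and 11.18) and PLAT (9.54 and 9.14) were high in KM-H2 alone and read 5.15 and 5.18 and 4.89 and 4.79 in L428. In the complement and receptor list 3 of 53 were higher and 4 lower. CD59, which blocks the membrane attack complex, measured 10.84 and 10.95 in L428, 9.35 and 9.27 in KM-H2 and 7.59 and 7.57 in L1236. CR2 was high in KM-H2 alone of the Hodgkin lines (10.99 and 10.63), and FCER1A, the IgE receptor alpha chain (12.74 and 12.67), and MARCO (10.95 and 10.91) in L1236 alone.

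Extracellular matrix genes were called in 5 of 56, all lower. FBN1, fibrillin-1, was lower than in both lines (-1.71 ± 0.13). SPARC and COL6A3 were high in KM-H2 alone (8.96 and 8.66 and 10.46 and 10.81) and NID2 in L1236 alone (10.62 and 10.38). In glycolysis and hypoxia 4 of 37 genes were higher and 3 lower. PFKM, the muscle form of phosphofructokinase, measured 7.86 and 7.90 in L428, 10.0 to 10.88 on the other Hodgkin arrays and 10.25 to 11.07 in the B-cell lines, while the platelet form PFKP was higher (1.14 ± 0.19) and called against L1236 alone. PFKFB3, which activates phosphofructokinase, was higher than in both lines (1.31 ± 0.19), and ALDOC, an aldolase, was lower than in both (-2.30 ± 0.37). P4HA2, a collagen prolyl hydroxylase, was at the same level in L428 (10.81 and 10.74) as in L1236 (10.84 and 10.72) and was 5.97 and 6.0 in KM-H2.

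Redox and detoxification genes were lower in 7 of 54 and higher in 2. CYP1B1 led them, and PRDX1, a peroxiredoxin, was also lower than in both lines (-1.26 ± 0.14). AKR1C3 and GSTM1 were high in L1236 alone (9.87 and 9.72 and 12.37 and 12.28, against 4.61 and 4.39 and 8.28 and 8.35 in L428), and copies of both genes may share signal. CYP26A1, which breaks down retinoic acid, was higher than in both lines (1.22 ± 0.10). In cholesterol and fatty acid synthesis 2 of 30 genes were lower, 0 of them against both lines, and 0 were higher. The share called was 6.67%, close to the 6.35% over all genes, and the median difference was -0.31.

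Mitosis and DNA replication was higher in 8 of 48 genes and lower in 0, with a median difference of 0.44. MCM10, a replication factor, measured 11.03 and 10.86 in L428, 9.58 and 9.22 in KM-H2 and 9.31 and 9.24 in L1236, above the B-cell lines (8.82 to 9.20). AURKB, a kinase of chromosome segregation, measured 9.35 and 9.45, 8.34 and 8.33 and 7.85 and 7.81. These 2 genes were apart from both lines. PLK1 (1.28), BUB1 (1.21), BIRC5 (1.07), PTTG1 (1.10), GINS2 (1.23) and TTK (1.0) were higher than the mean, and L428 was within the range of the B-cell lines for all of them by a margin of 1 log2 unit. MKI67 differed by 0.62 (adjusted p = 0.0107), under the size limit. Growth rates of the lines were not measured here, and their part in these values was not tested.

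Of 36 Polycomb, DNA methylation and acetyltransferase genes 3 were higher and 0 lower. EED, a core subunit of Polycomb repressive complex 2, measured 10.63 and 10.82 in L428, 9.27 and 8.97 in KM-H2 and 9.42 and 9.37 in L1236, though 1 of its 2 probe sets was not called. MBD2, which binds methylated DNA, measured 11.39 on both arrays, 8.60 and 8.79 and 10.42 and 10.28, with 1 of 4 probe sets called. HDAC2, a histone deacetylase, differed by 1.0 ± 0.07. EZH2 (0.53) and DNMT1 (-0.0042) were not called. Among receptor tyrosine kinases MET, the receptor of hepatocyte growth factor, was the sole call of 45 genes, with 10.39 and 10.07 in L428 and 7.99 to 8.17 on the other Hodgkin arrays, and its 4 probe sets were all called. DUSP6, a phosphatase that ends ERK signals, measured 9.92 and 10.06 in L428 and 6.86 to 7.28 on the other Hodgkin arrays. In the AP-1 family JUN was higher than in both lines (1.20 ± 0.24), with 1 of 4 probe sets called, and ATF3 (-0.32) and BATF3 (0.31) were not called.

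Among the gene families, solute carriers held 13 genes higher and 5 lower of 238, 7.56% called and close to the 6.35% over all genes. The shares called were 7.69% for MAP kinase symbols, 7.32% for GPR symbols, 10.9% for heat shock proteins and 8.33% for HOX genes. S100 proteins held 2 higher of 18 (11.1%), S100A6 and S100A11 (9.62 and 9.69 in L428, 8.59 and 8.63 in KM-H2 and 5.70 and 5.73 in L1236). Of 39 genes with a MAP kinase symbol 3 were higher, the kinases MAP3K5 (1.52) and MAP3K6 (1.45) and MAP3K7CL, and all 3 were apart from both lines. Of 41 receptors with a GPR symbol 3 were higher, GPR183, GPR25 (6.98 and 6.42 in L428) and GPR63 (6.41 and 7.03). Heat shock proteins and their DNAJ partners were higher in 2 of 55 and lower in 4, among them DNAJC6 (-2.84) and HSPB1 (-2.50 ± 0.36). Of the HOX genes 1 was higher and 1 lower of 24. HOXC6 measured 6.70 and 6.80 in L428, 9.77 and 9.71 in KM-H2 and 8.55 and 8.79 in L1236. By the limma fit 0 genes were called in 26 of the 94 families, among them the interleukins (29 measured genes). The list of MYC and its network (19 genes) also had 0 calls against the mean, and MYC differed by 0.32 (adjusted p = 0.428).

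The list of B-cell surface and receptor genes was lower in 5 of 31 and higher in 1, with 19.4% called against 6.35% over all genes, and 1 in each direction (BLNK and PRKCB) was apart from both lines. CR2, the complement receptor CD21, was called lower against KM-H2 alone, as described above. CD53, a tetraspanin of white blood cells, was 7.61 and 7.16 in L428, near L1236 (7.72 and 7.70) and below KM-H2 (9.88 and 10.26) and the B-cell lines (10.24 to 11.80). SWAP70, which links the B-cell receptor to the cytoskeleton, was 5.38 and 5.25 in L428, 7.02 and 6.88 in KM-H2, 6.25 and 5.84 in L1236 and 9.12 to 10.71 in the B-cell lines, and was called against KM-H2 alone. The SWAP70 call was lost when low values were raised to the lower quartile (-0.78) and over the mean of its 3 probe sets (-0.79). FCER2, the low-affinity IgE receptor CD23, was high in L1236 alone (9.41 and 9.31, against 6.57 and 6.58 in L428). In the germinal centre list 1 of 16 genes was higher, MYBL1, and 2 were lower, both against L1236 alone, CD27 and the G-protein regulator RGS13 (5.47 and 4.76 in L428 and 8.95 and 8.97 in L1236).

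Of 37 cytokine receptors 3 were higher (IFNGR1, IL5RA and IL3RA) and 3 lower (CSF2RB, IFNGR2 and IL10RA), 16.2% in all, and IFNGR1 and CSF2RB were the members apart from both lines. IL10RA, the interleukin-10 receptor chain, measured 8.16 and 8.21 in L428, 9.13 and 8.21 in KM-H2 and 9.77 and 9.65 in L1236, and its difference of -1.01 ± 0.20 was at the size limit and ranged from -1.24 to -0.78 with 1 array left out, which ended the call for 3 of the arrays.

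Over all genes 6.35% were called in either direction. The Wnt list held 1 higher and 3 lower of 38 (10.5% called), and the TGF-beta and BMP list 0 higher and 3 lower of 41 (7.32%). In the secretory pathway 2 of 30 were lower (6.67%), and in the lysosome list 2 of 33 (6.06%). BCL2 family, caspase and death regulators held 1 higher and 1 lower of 36 (5.56%), and p53 targets 1 higher and 1 lower of 25 (8%). G1 cyclins and their kinases held 1 lower of 25 (4%), and immunoglobulin genes 1 lower of 10 (10%). Among markers of other cells 2 of 30 T and NK genes were lower (6.67% called) and 1 of 32 myeloid genes was lower (3.12%). Of 28 stromal genes 1 was higher and 1 lower (7.14%), and 0 of 16 erythroid and platelet genes were called by the limma fit. Of the 15 Hodgkin cell markers 4 were higher (CCL17, TRAF1, FSCN1 and TNFRSF8) and 1, ID2, was lower by the call described above, which 1 array could end.

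The B-cell lines give a reference for direction. Of the 207 genes higher than in both lines, L428 lay at least 1 log2 unit above every B-cell line in 110 (53.1%). In 96 (46.4%) it lay in their range widened by 1 log2 unit at each end. In 19 of those 96 the mean of KM-H2 and L1236 was at least 1 log2 unit below every B-cell line. Among them were MYBL1, IRF8, ICAM3, SERPINB9, SLC7A5 and MBD2. For IRF8 and ICAM3 L428 also read below every B-cell line, but by less than 1 log2 unit. Of the 103 lower genes, L428 was in this widened range in 70 (68%) and at least 1 log2 unit below every B-cell line in 30 (29.1%). In 33 of the 70 the mean of KM-H2 and L1236 was at least 1 log2 unit above every B-cell line, as for PLS3, CLIC2, CYP1B1, TIMP1, CXCL10, LTA, TAP1 and JAG2. The B-cell lines did not enter the calls other than through the shared estimate of spread.

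Called genes were also counted along the chromosomes, a count chosen after the values were seen. Of 673 measured genes of chromosome 6, 55 were higher in L428 (8.17%) and 22 lower, against 3.33% and 3.02% over all genes. Of the 55, 31 were apart from both lines (4.61% of its measured genes, against 1.73% over all genes). Chromosomes 8 and 7 came next in the share of higher genes, with 30 of 434 (6.91%) and 32 of 539 (5.94%). On these 3.46% and 3.9% of measured genes were higher than in both lines. The running median over 25 neighbouring genes was highest from MANEA to OSTM1, at 0.56 against KM-H2 and 0.94 against L1236. Called genes also lay next to each other, as ELOVL4, TTK, BCKDHB and TENT5A did, though ELOVL4 read below the lower quartile of signal in all 3 Hodgkin lines. IFNGR1, TNFAIP3, PERP, HEBP2 and MAP3K5, described above, lie near each other on this chromosome. BCKDHB, a subunit of branched-chain ketoacid dehydrogenase, measured 9.83 and 9.95 in L428 and 6.40 to 7.08 on the other Hodgkin arrays. On chromosome X, 43 of 462 genes were lower (9.31%), of which 12 were cancer-testis, MAGE or SSX genes. Outside those genes 31 of 437 were lower (7.09%). DNA copy number was not measured in these files, and its part in these counts was not tested.

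**Figure D5:**
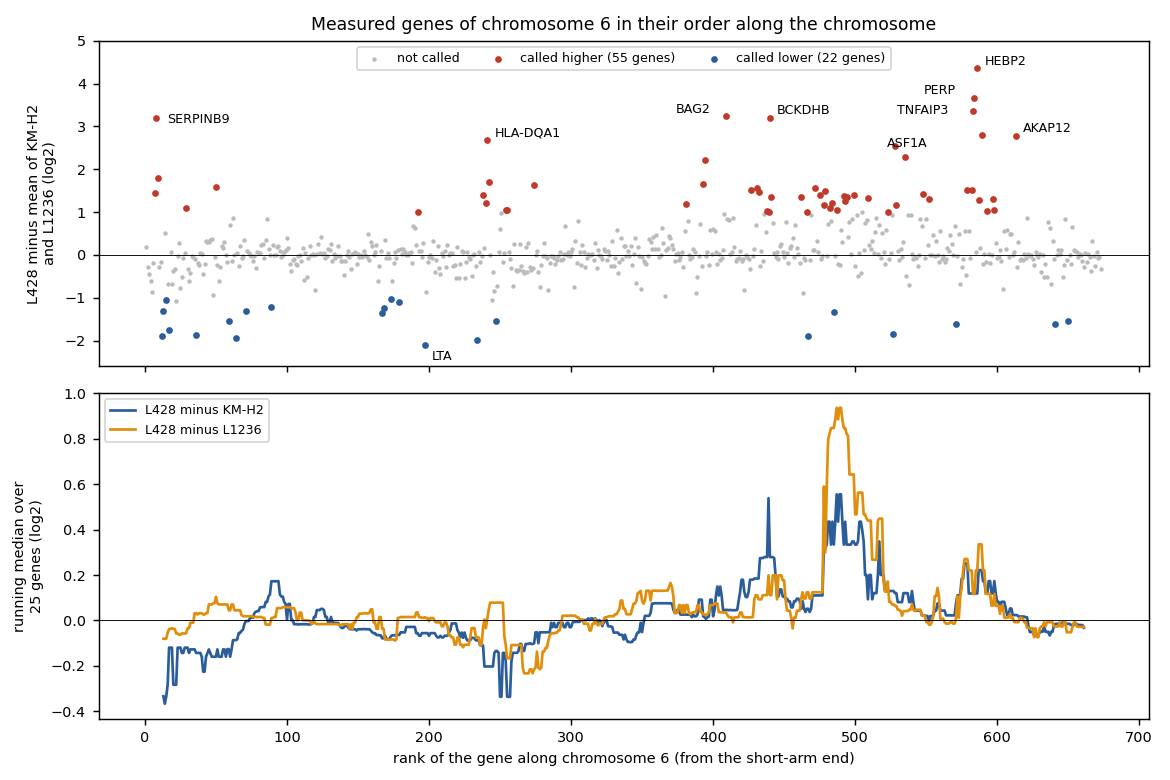
The upper panel shows the log2 difference of L428 from the mean of KM-H2 and L1236 for 673 genes of chromosome 6, ranked along the chromosome from the short-arm end, with 55 genes called higher in red and 22 called lower in blue. The lower panel shows running medians over 25 genes against KM-H2 (blue) and L1236 (orange), which peak at 0.56 and 0.94.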

How the data were processed

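The values are log2 signals of 12 Affymetrix arrays that the authors made by RMA in R 2.10.1, per the series' design text and the submitters' processing notes; which arrays were normalised together is not stated. The deposited table held 22283 probe sets, and 68 control probe sets were left out. RMA summarises perfect-match probes on a common scale, so values near the floor of about 4 compress differences, and the number of arrays limits the precision. Genes were named from the platform annotation (19065 probe sets had 1 symbol, 1043 several and 2107 none, and only the first kind was named). One limma fit (version 3.58.1 in R 4.3.3) took the 12 arrays with a mean per line and empirical Bayes moderation, with Benjamini-Hochberg adjustment over 22215 probe sets. The fit was tested on simulated data.

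The text names the 15 largest differences each way among genes apart from both lines, the marker genes, and runs of at least 4 neighbouring called genes. It also draws on key members and up to 6 further called members of each list, and on up to 3 called members of each family. Not all of these list and family members are named, and WNT5A, FZD6 and HSP90B1 are among those left out. AMPH, PON2, CYB5A, FMR1, QDPR, HLA-B, SLC7A11, MANEA and OSTM1 fall outside that rule and were chosen after their values were seen. The members, lists and tests were chosen with earlier results of these data known. XIST and Y-linked genes (24 in all) were left out. Alternatives changed the arrays, spread, scaling, filters, limits and probe sets.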

Additional observations from a re-analysis of the deposited data

How the results depend on the processing

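Of 176 counts of calls recomputed under alternatives, 160 stayed within 1.5 times the value reported. The others came from stricter size limits, by construction. With limma's treat test against a log2 difference of 1, the counts higher and lower were 135 and 124 against the mean of both lines, 199 and 172 against KM-H2, 150 and 195 against L1236, and 68 and 30 apart from both. With a limit of 2 they were 86 and 77, 125 and 112, 102 and 137, and 43 and 23. Leaving out 1 array gave 378 to 412 higher and 331 to 392 lower against the mean, 522 to 571 and 468 to 560 against KM-H2, 400 to 471 and 418 to 460 against L1236, and 188 to 210 and 91 to 106 apart from both. The fit with a replicate block gave 398 higher and 360 lower. The deviations of replicate 1 from its line mean were correlated between lines, with r of -0.443 to 0.296 over 15 pairs of lines. In 4 pairs r was over 0.1, and the replicate numbers were not taken to pair samples. The 4 lines of the published dataset alone, an alternative chosen after seeing the data, gave 400 and 364.

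Among named genes, ID2 lost its call with each Hodgkin array left out (-1.11 to -0.98) and under the block (adjusted p = 0.0505 by limma). STAT5A ranged from 0.39 to 1.66, ACKR3 from -2.05 to -1.07, TNFRSF9 from -1.19 to -0.83, GPR63 from 0.86 to 1.48 and JUN from 0.99 to 1.40, and each lost its call without at least 1 array. Calls close to a threshold were also lost without at least 1 array for HDAC2, TTK, CCR4, BIRC5, BIRC2, IFNGR2, IL3RA, CD4, ELOVL4, SERPINB1 and MX2, the lowest sizes being 0.97 for HDAC2, 0.92 for TTK, 0.96 for CCR4 and -0.92 for BIRC2, and CD40 gained a call (-1.10 without L428 replicate 2). Averaging all probe sets of a gene took 17 named genes out of the calls, among them MBD2 (0.19), PTPN1 (0.44), BUB1 (0.47), CYLD (0.52), CD58 (0.61), HLA-DQA1 (0.84) and PAX5 (-0.93). Raising low values to the lower quartile ended 10 named calls, BACH2 (0.67), ACKR3 (-0.77), ELOVL4, MANEA (0.70), GPR25 (0.99), SWAP70 (-0.78), ERAP2, ID2, MX2 and STAT5A; ELOVL4 fell to a difference of 0 because all its Hodgkin values lay under that level. Signs turned only in genes that were not called. With 1 array left out BCL2A1 ranged from -0.22 to 0.15, CD3D from -0.93 to 0.0339, CD79A from -0.0813 to 0.42, DDIT3 from -0.0614 to 0.10, DNMT1 from -0.0228 to 0.0143, IFIT1 from -0.0498 to 0.037, MS4A1 from -0.32 to 0.12, NFKB2 from -0.0758 to 0.14, REL from -0.0997 to 0.0423, RELA from -0.0258 to 0.14 and SLC7A1 from -0.057 to 0.07. Centring the arrays moved DNMT1 to 0.0159 and IFIT1 to 0.0137, and averaging probe sets moved SOCS3 to 0.0168. Causes of these changes were not tested.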
